A study of Mus musculus with 13 samples.

Results

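The miRNAs described here belong to mouse families known for simple UG or CA repeats. They comprise every mouse miRNA of the array whose name begins with mmu-miR-297, mmu-miR-466, mmu-miR-467 or mmu-miR-669, together with mmu-miR-1187 and mmu-miR-3082-5p. By this rule 64 of the 1079 mouse miRNAs on the array were members, of which 4 belonged to miR-297, 23 to miR-466, 12 to miR-467 and 23 to miR-669. The families were chosen by the log2 difference between the diets, measured in these same tumors, so all differences between the diets are given below as a description, and the calls of the members support nothing.

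RNA was taken from flank tumors of male C57BL/6 mice that had been injected subcutaneously with B78H1 cells, an amelanotic mouse melanoma line, and the tumors were taken at day 28. Of the 13 tumors, 7 came from mice on chow with 4% curcumin (curcumin diet, begun 14 days before the injection) and 6 from mice on standard chow (control diet). Each tumor was measured on 1 one-color array. Cells were injected in both flanks, and the labels number the tumors of each diet without naming the animal, so the p-values measure the spread between tumors. A whole tumor holds tumor cells and host cells, and fewer cells of a type cannot be told apart from less of a miRNA per cell.

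Most miRNAs of these families in the mouse are encoded in a large cluster within an intron of Sfmbt2, a Polycomb group gene that is imprinted and best known for its role in the placenta. The hairpin of such a miRNA has a UG-rich 5p arm and a CA-rich 3p arm, and either arm can be loaded into an Argonaute protein and guide it to target transcripts through its seed, bases 2 to 8. In the RefSeq annotation of the assembly GRCm38.p6, 71 of the 72 miRNA genes within Sfmbt2 bear a name of these 4 families. For 49 members all gene copies lay within Sfmbt2, for 10 all lay elsewhere, 4 had copies in both places, and mmu-miR-466a-5p matched no gene by name.

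RefSeq sequences were at hand for 9 members. They are printed 5′ to 3′ with the seed in capitals, because they show the UG and CA repeats of these families. The division of the members below rests mostly on the arm in the name. The repeat was used only for members without an arm in the name. The miRNAs mmu-miR-1187, mmu-miR-3082-5p, mmu-miR-669n, mmu-miR-466j and mmu-miR-466k carried UG repeats.
mmu-miR-1187: uAUGUGUGuguguauguguguaa
mmu-miR-3082-5p: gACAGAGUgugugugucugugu
mmu-miR-669n: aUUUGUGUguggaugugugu
mmu-miR-466j: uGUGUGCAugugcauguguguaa
mmu-miR-466k: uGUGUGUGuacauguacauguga
The miRNAs mmu-miR-466i-3p, mmu-miR-466q, mmu-miR-467f and mmu-miR-467g carried CA repeats.
mmu-miR-466i-3p: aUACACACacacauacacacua
mmu-miR-466q: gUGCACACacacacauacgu
mmu-miR-467f: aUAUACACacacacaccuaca
mmu-miR-467g: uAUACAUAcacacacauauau

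All 9 lay outside Sfmbt2. In GRCm38.p6, mmu-miR-1187 lay at chr5:82798964-82798986 (minus strand) in no annotated host gene, and mmu-miR-3082-5p at chr17:25831406-25831427 (minus strand), where Jmjd8 and Stub1 are annotated. The locus of mmu-miR-669n was chr3:115979905-115979924 (plus strand) within Slc30a7, and that of mmu-miR-466j was chr10:60960802-60960824 (plus strand) with no host gene. On the other side, mmu-miR-466i-3p lay at chr13:17747552-17747573 (plus strand) within Cdk13, mmu-miR-466q at chr3:28419988-28420007 (plus strand) within Tnik, and mmu-miR-467f at chr11:69635419-69635439 (minus strand) within Fxr2. The remaining members with a sequence were mmu-miR-466k at chr3:85467396-85467418 (plus strand, Gm31419) and mmu-miR-467g at chr5:34732872-34732892 (minus strand, Grk4). The 9 seeds all differed, and no other array miRNA with a RefSeq sequence shared one of them. Among the 840 array miRNAs with a sequence, 8 (0.952%) held 8 bases of alternating U and G (UGUGUGUG or GUGUGUGU, read on the mature strand), of which 4 were members. A CA repeat of that length (CACACACA or ACACACAC) was held by 4 (0.476%), all of them members.

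The members were then divided into a 5p class and a 3p class, a division that was made after the values had been seen. Of the 64 members, 31 formed the 5p class because their names give the 5p arm or, without an arm in the name, their sequence holds a shorter UG repeat of 5 bases (UGUGU or GUGUG). The 3p class had 29 members, placed likewise by the 3p arm or a CA repeat of 5 bases. The members mmu-miR-466g, mmu-miR-669g, mmu-miR-669i and mmu-miR-669j have no arm in the name and no RefSeq sequence at hand. Whether they hold a repeat was not examined, and they were left unplaced.

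Over the whole array, the summed signal of the mouse miRNAs lay between 114095 and 281508 in curcumin tumors (median 205110) and between 150272 and 244666 in controls (median 171250), and the scanner software called 272 to 370 and 313 to 412 miRNAs detected. Curcumin tumor 5 had both the lowest signal and the fewest detected miRNAs. On slide 1 lay 5 of the arrays (3 curcumin, 2 control) and on slide 2 the other 8 (4 of each diet). On both slides the control tumors lay in line 1 of the array positions and the curcumin tumors in line 2, so position and diet cannot be told apart. Of the markers fixed for other cell types, all 7 hematopoietic miRNAs were called higher in curcumin tumors, where their summed log2 level was 9.50 to 11.02 against 8.65 to 9.22 in controls. The 4 melanocytic miRNAs had a summed log2 level of 7.62 to 10.26 in curcumin tumors and 9.93 to 10.48 in controls, with 1 called lower, and no array detected mmu-miR-204-3p. The summed log2 level of the 5 fibroblast miRNAs was 8.96 to 10.09 in curcumin tumors and 7.34 to 8.62 in controls, with 2 called higher, and that of the 7 epithelial miRNAs was 7.77 to 10.76 and 1.73 to 7.37, with 1 called higher. The diets did not overlap in these lists or in the hematopoietic one, although no array detected the 5 epithelial miRNAs of the miR-200 group. The part of these shifts in the results below was not tested.

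Values are log2 of the summed probe signal of a miRNA after quantile normalization, which gives every array the same distribution, so each difference is a shift against the rest of the array. Signals at or below background were set to a floor of −7.03. Levels of different miRNAs come from different probes and are not compared. Detection divided the members before any comparison of levels. On all 13 arrays 9 members were detected, namely mmu-miR-1187, mmu-miR-3082-5p, mmu-miR-466i-5p and mmu-miR-669n of the 5p class and mmu-miR-466f-3p, mmu-miR-466h-3p, mmu-miR-466i-3p, mmu-miR-466q and mmu-miR-467f of the 3p class. In all tumors of at least 1 diet 23 were detected (called measurable members from here on), 19 were detected less often, and 22 on no array. By subfamily, 0 of 4 members of miR-297, 11 of 23 of miR-466, 2 of 12 of miR-467 and 8 of 23 of miR-669 were measurable. By class the numbers were 16 of 31 in the 5p class and 6 of 29 in the 3p class, and mmu-miR-466g was the remaining one.

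Detection also differed from tumor to tumor. Of the 31 members of the 5p class, 16 to 22 were detected in control tumors (median 18) and 4 to 19 in curcumin tumors (median 15). The lowest number, 4, was that of curcumin tumor 5, the dimmest array. Without it the curcumin tumors lay between 13 and 19. Of the 29 members of the 3p class, 5 to 11 were detected in control tumors and 6 to 19 in curcumin tumors, with a median of 6 in both. The highest number was that of curcumin tumor 1, and the other 6 curcumin tumors had 6 or 7.

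In the 5p class, the 4 members detected on all arrays had lower means in curcumin tumors, by 1.57 to 1.89 on the log2 scale. The other 12 measurable members were detected in all control tumors but not in all curcumin tumors, so they passed the filter only through the group in which they were higher, and a lower curcumin mean was favored by the filter itself. The 6 members of the class detected less often also had lower means (−5.58 to −2.52, with values at the floor in each). Of the 9 detected on no array, 1 had a lower mean and mmu-miR-467a-5p and mmu-miR-467b-5p a higher one. The others lay at the floor in every tumor and did not differ. In all, 7 members were called by limma (adjusted p-value below 0.05, Benjamini-Hochberg over all 1079 miRNAs). These were mmu-miR-466h-5p, mmu-miR-466i-5p, mmu-miR-1187, mmu-miR-3082-5p and, of miR-669, mmu-miR-669n, mmu-miR-669b-5p and mmu-miR-669e-5p. Over all miRNAs 7.51% were called lower and 8.34% higher, 15.8% in all. No member was called higher. The rule rests on this contrast, and nothing is read from these shares. The calls also lay close to the threshold. None of the 7 was left when curcumin tumor 1, 2, 3 or 6 or control tumor 1, 2, 4 or 5 was left out, 1 member was called without curcumin tumor 5, 14 without curcumin tumor 4 and 11 without control tumor 3. None was called either when the arrays were scaled to the 75th percentile of all miRNAs or not scaled, and 1 was called with the slide as a block.

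**Figure D1:**
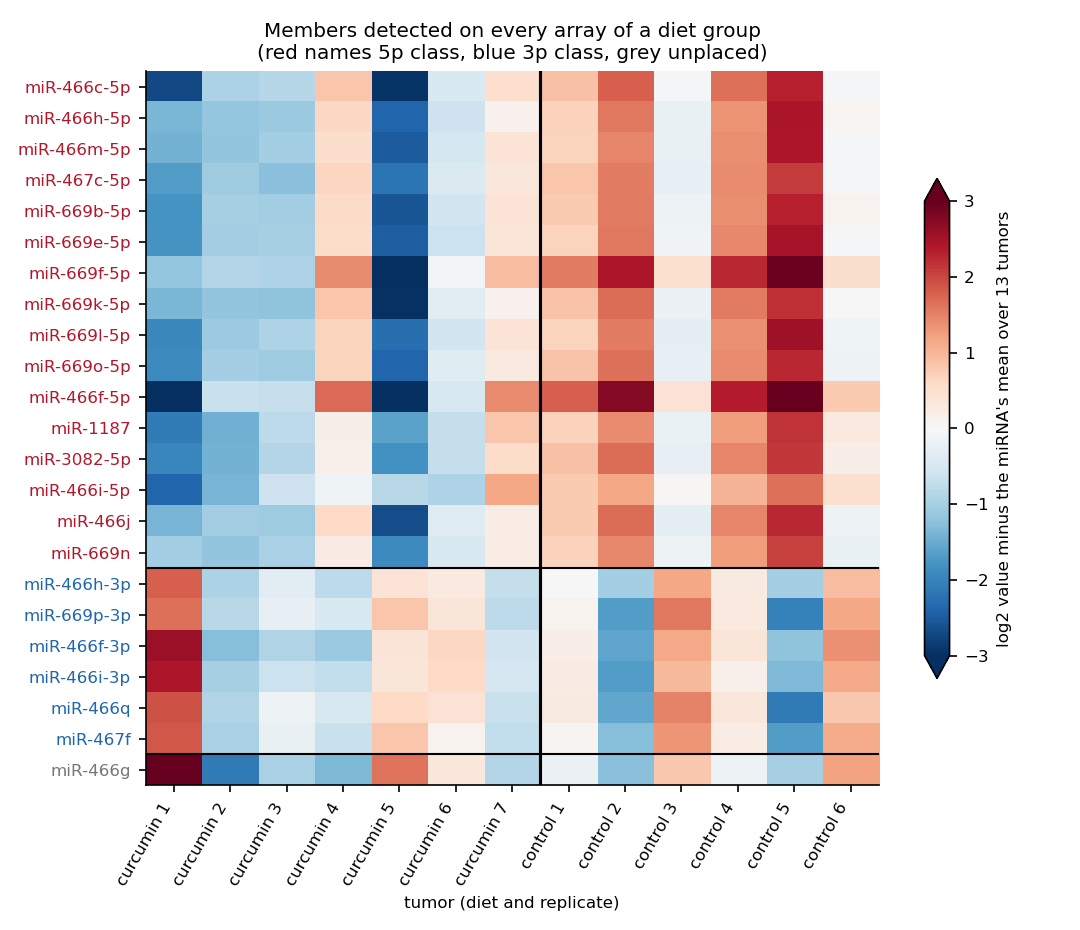
Log2 values of the 23 measurable members in each of the 13 tumors (curcumin left, control right of the line), shown as the difference from the miRNA's mean over all tumors and limited to ±3 in the color scale. In the 16 measurable members of the 5p class (red names) curcumin tumors 1, 2, 3, 5 and 6 lay below all control tumors, a description only. Of these 16, 12 passed the filter through the control tumors only. The measurable members of the 3p class (blue names) were highest in curcumin tumor 1.

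The miRNA mmu-miR-466i-5p is the 5p arm of a hairpin within Cdk13, whose 3p arm is printed above. In curcumin tumors its log2 value was 8.75 at the lowest, 10.30 at the median and 12.28 at the highest, and in controls 11.15, 12.02 and 12.77. Of the 7 curcumin tumors 6 lay below all controls, while curcumin tumor 7 lay within their range. The difference was −1.58 ± 0.49 (SE, n = 7 and 6; limma adjusted p = 0.048), a 3.00-fold lower mean. This miRNA alone made up 0.216% to 2.10% of the signal of curcumin tumors and 1.00% to 4.43% of that of controls, before normalization.

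For mmu-miR-3082-5p the values ran from 7.01 over a median of 8.08 to 9.51 in curcumin tumors and from 8.71 over 10.14 to 11.09 in controls. Its difference of −1.89 ± 0.51 was the largest of the 7 called members (limma adjusted p = 0.032). The repeat of mmu-miR-1187 is the longest UG run among the printed members, with 11 bases. Its values were 6.48, 7.79 and 9.42 (lowest, median, highest) in curcumin tumors and 8.38, 9.56 and 10.76 in controls, a difference of −1.75 ± 0.52 (limma adjusted p = 0.044). The groups overlapped in both. In mmu-miR-669n, encoded within Slc30a7, curcumin tumors lay at 5.30, 6.25 and 7.48 and controls at 7.01, 8.20 and 9.27, and only curcumin tumors 4 and 7 reached the range of the controls. The difference was −1.57 ± 0.46 (limma adjusted p = 0.042).

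Several members encoded within Sfmbt2 were also called, all of which had passed the filter through the control tumors alone. The log2 values of mmu-miR-466h-5p were 2.28, 3.54 and 5.29 in curcumin tumors and 4.43, 5.68 and 7.11 in controls (lowest, median, highest), a difference of −1.82 ± 0.55. For mmu-miR-669b-5p they were 1.92, 3.47 and 5.05 against 4.32, 5.57 and 6.81 (−1.86 ± 0.57), and for mmu-miR-669e-5p 2.68, 4.15 and 5.69 against 5.03, 6.21 and 7.62 (−1.86 ± 0.58). In each of them 5 curcumin tumors lay below all controls and 4 controls above all curcumin tumors. The members mmu-miR-466c-5p (−2.04 ± 0.69), mmu-miR-669k-5p (−1.88 ± 0.61) and mmu-miR-669o-5p (−1.79 ± 0.58) did not pass the threshold, nor did mmu-miR-466j of chromosome 10 (−1.77 ± 0.58). Their groups overlapped in the same tumors.

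The 2 largest differences among the 23 measurable members rest on single values at the floor. The log2 value of mmu-miR-466f-5p was −7.03 in curcumin tumor 5 and −1.88 in curcumin tumor 1, between 1.21 and 3.59 in the other curcumin tumors and between 2.34 and 5.21 in controls. That of mmu-miR-669f-5p was −7.03 in curcumin tumor 5, 1.34 to 3.90 in the other curcumin tumors and 3.00 to 5.44 in controls. Their differences were −3.54 ± 1.55 and −3.16 ± 1.54, and −2.32 and −1.82 without curcumin tumor 5. The deposited log2 values, which seem to contain an added constant, gave −1.38 and −1.46.

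Over the 14 members of the 5p class without a value at the floor, the difference ranged from −2.04 to −1.57 with a median of −1.78, that is, a 2.97-fold to 4.12-fold lower mean. Of these 14 members, 10 passed the filter only through the control tumors, so the range supports nothing about the class. These 10 also depended on the processing. Their median difference was −0.59 with normexp background correction (range −0.77 to −0.43) and −2.23 with the arrays scaled to the 75th percentile of detected miRNAs (range −3.85 to −1.92). Under the latter mmu-miR-466c-5p was at −3.85, mmu-miR-669k-5p at −3.72 and mmu-miR-467c-5p at −3.54. Members encoded within and outside Sfmbt2 had overlapping ranges, whose difference was not tested. Of the 14, the 9 encoded only within Sfmbt2 had differences from −2.04 to −1.74 and the 5 encoded only elsewhere from −1.89 to −1.57. The tumors kept nearly the same order in all 16. Curcumin tumors 1, 2, 3, 5 and 6 were below every control tumor in each of the 16 members, control tumor 5 was the highest tumor in each, and control tumor 3 was the lowest control in 15. The members were chosen by this contrast, and 12 of the 16 passed the filter only through the control tumors. This order is therefore a description and supports nothing about the diets.

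**Figure D2:**
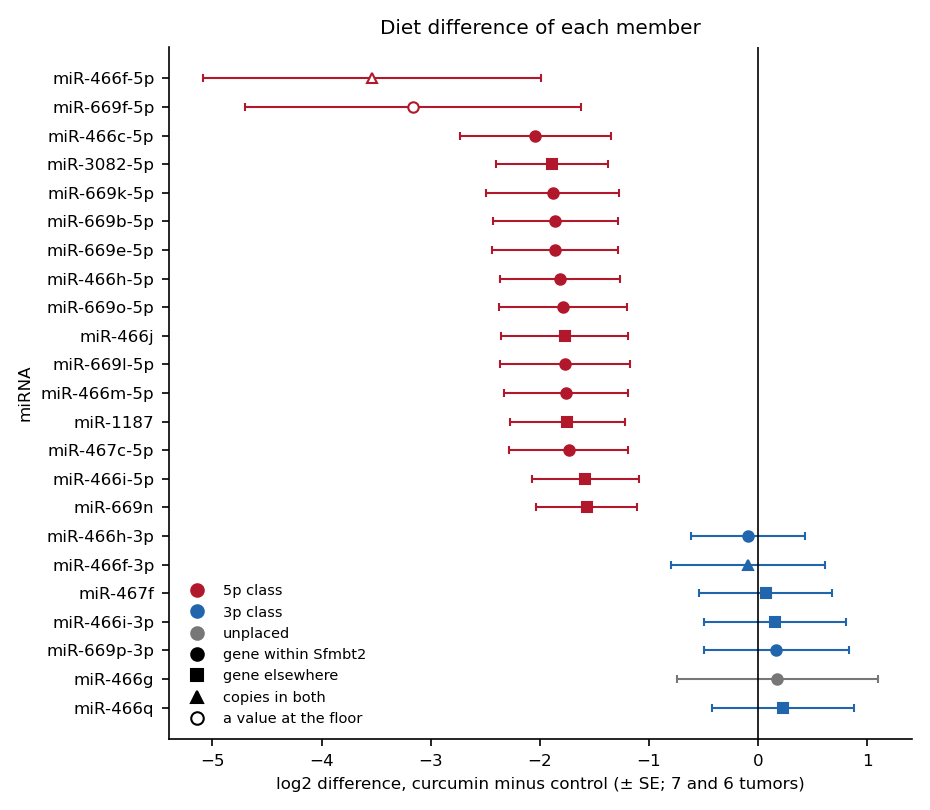
Log2 difference between the diets (x axis, curcumin minus control, bars ± SE from limma, 7 and 6 tumors) of the 23 measurable members. The 5p class (red) lay at −1.57 and below, 12 of its 16 members having passed through the control tumors only, whether the gene is within Sfmbt2 (circles) or elsewhere (squares; triangles have copies in both), and the 3p class (blue) lay between −0.09 and 0.23; open symbols mark members with a value at the floor.

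In the 3p class the differences between the diets were near 0. Its 6 measurable members had differences between −0.09 and 0.23, with SE between 0.52 and 0.71, and none was called. For mmu-miR-466i-3p, which comes from the same hairpin as mmu-miR-466i-5p, the log2 values were 2.33, 2.83 and 5.76 in curcumin tumors and 1.65, 3.52 and 4.47 in controls (lowest, median, highest). The difference was 0.16 ± 0.65, the ranges overlapped, and the highest value of all was that of curcumin tumor 1. For mmu-miR-466h-3p the values were 3.79, 4.39 and 6.54 against 3.72, 4.87 and 5.90 (−0.09 ± 0.52), and for mmu-miR-467f within Fxr2 they were 3.22, 3.98 and 6.08 against 2.52, 4.36 and 5.52 (0.07 ± 0.61). The values of mmu-miR-466q were 2.27, 3.02 and 5.06 against 1.05, 3.48 and 4.65 (0.23 ± 0.65). In all 6 members curcumin tumor 1 was the highest tumor of its diet and curcumin tumor 2 the lowest. Without curcumin tumor 1 the median difference of the 5 members detected on all arrays was −0.24 instead of 0.07, and that of the 4 members of the 5p class was −1.53 instead of −1.67. The sign of the 3p median depended on the scaling, with −0.20 for the 75th percentile of detected miRNAs and −0.21 without normalization, whereas the median of the 4 members of the 5p class detected on all arrays lay between −1.67 and −1.40 under the scalings tried.

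Since both classes are represented, the median over all 9 members detected on all arrays was −0.09, equal to the median of the 243 miRNAs detected on all arrays. In none of the 9 did the diets separate completely, whereas they did so in 11.9% of the 243, with 3.70% lower in curcumin tumors. The unplaced mmu-miR-466g had log2 values of 1.07, 2.33 and 7.16 in curcumin tumors and 1.96, 3.04 and 4.41 in controls, with a difference of 0.18 ± 0.92. A miRNA is measured by up to 4 different probes here, whose signals were summed. The 17 probes of the 5p class with a positive signal on all arrays had differences between −1.92 and −1.52 (11 members). The 14 probes of the 3p class had differences between −0.87 and 0.26 (6 members), and the lowest was that of a probe that gave 1.02% to 22.2% of the signal of mmu-miR-466f-3p. The probe that gave most of that signal had a difference of 0.00.

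Both slides held both diets. On slide 1 the diet differences of the 4 members of the 5p class detected on all arrays ranged from −2.70 to −2.13, and on slide 2 from −1.34 to −0.98. The 5 members of the 3p class were higher in curcumin tumors by 0.67 to 0.98 on slide 1 and had differences from −0.59 to −0.16 on slide 2. A limma test of the diet-by-slide interaction called none of the 1079 miRNAs. At an unadjusted p-value below 0.05 it found 11 miRNAs and no member, and the lowest unadjusted p-value of the 9 members was 0.145. The slide itself, which the choice of the members did not use, called no miRNA at an adjusted p-value below 0.05 (0.00%). At an unadjusted p-value below 0.05 it called 24 miRNAs (2.22%) and none of the 64 members, of which the lowest unadjusted p-value was 0.182. The differences of the 9 members between the slides (slide 2 minus slide 1) were 0.16 to 0.64 with SE between 0.49 and 0.76.

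Variation among tumors of the same diet was not used to choose the members. After subtraction of each diet mean, the 4 members of the 5p class detected on all arrays correlated with each other over the 13 tumors with Pearson's r between 0.68 and 0.99 (median 0.91, 6 pairs). The 5 members of the 3p class did so with r between 0.93 and 1.00 (median 0.97, 10 pairs). Between the classes all 20 pairs had a negative r, from −0.80 to −0.56 (median −0.69). Because of the 20 opposed pairs, the median over all 36 pairs was −0.61. Pairs of the 233 other miRNAs detected on all arrays had a median r of 0.06. These pairs share arrays, normalization and similar sequences, so no p-value is given.

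**Figure D3:**
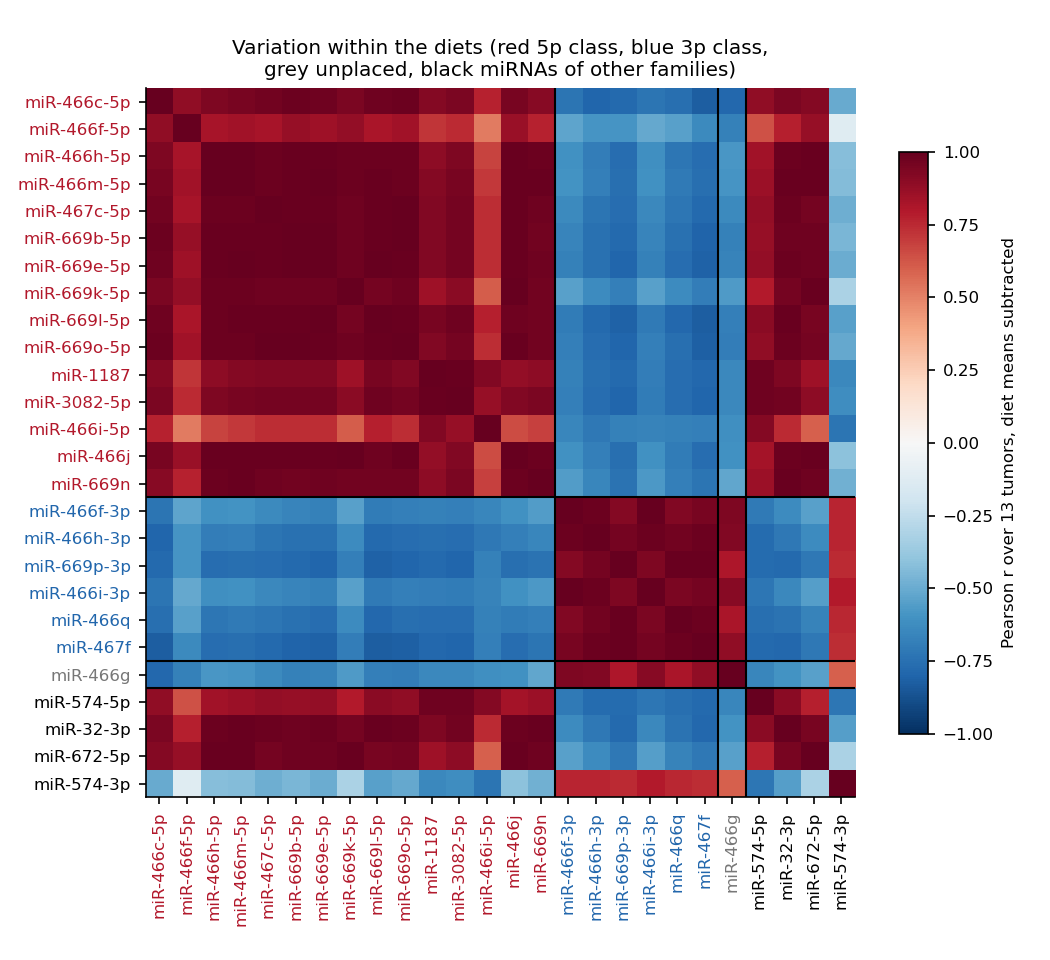
Pearson's r over 13 tumors after subtraction of the diet means, for the 22 members detected on 11 or more arrays and 4 miRNAs of other families (black names), with red for positive and blue for negative values. The 5p class and the 3p class each form a block of r above 0.5, all 90 pairs between them were below −0.5, and mmu-miR-574-5p, mmu-miR-32-3p and mmu-miR-672-5p lay with the 5p class.

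With members detected on at least 11 arrays the picture included Sfmbt2. The 15 members of the 5p class had a median r of 0.96 (105 pairs, lowest 0.52), the 6 of the 3p class had a median r of 0.96 (15 pairs, lowest 0.92), and the 90 pairs between the classes ranged from −0.83 to −0.51. The 9 members of the 5p class encoded only within Sfmbt2 had a median r of 0.98 with each other and of 0.95 with the 5 encoded only elsewhere. Within Sfmbt2 alone, the 18 pairs of a 5p with a 3p member had a median r of −0.76. The unplaced mmu-miR-466g had r between 0.81 and 0.93 with the 3p class and between −0.78 and −0.52 with the 5p class. The first principal component took 84.8% of the variance of the 9 members within the diets, and its loadings had one sign in the 4 members of the 5p class and the opposite sign in the 5 of the 3p class. For the other 233 miRNAs it took 35.0%, but shares over 9 and over 233 miRNAs are not directly comparable.

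In single tumors this opposition was seen in both diets. The mean log2 value of the 4 members of the 5p class was highest in control tumor 5 (10.97), which had the lowest mean of the 5 members of the 3p class (2.25). Curcumin tumor 1 had the lowest 5p mean (7.11) and the highest 3p mean (5.83). Relative to their diet mean, the classes deviated in opposite directions in 9 of the 13 tumors. The median r between the classes was −0.90 in the 6 control tumors and −0.62 in the 7 curcumin tumors, and whether these differ was not tested. The negative r was smaller without normalization between arrays, where the pairs of the 9 members between the classes ranged from −0.65 to −0.19 (median −0.42), and the r within the classes stayed at a median of 0.97 and 0.95.

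**Figure D4:**
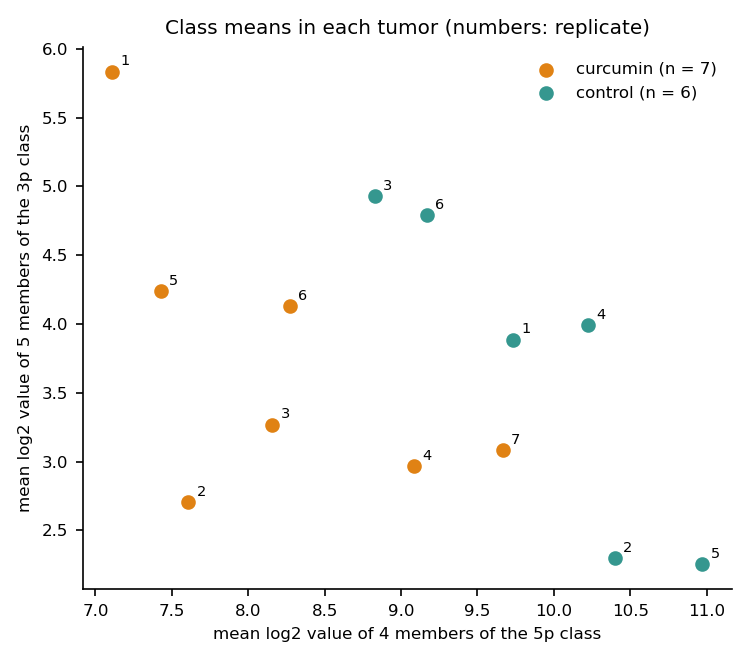
Mean log2 value of the 4 members of the 5p class (x axis) and of the 5 members of the 3p class (y axis) detected on all arrays, 1 point per tumor with its replicate number, for 7 curcumin and 6 control tumors. Control tumor 5 had the highest 5p mean (10.97) and curcumin tumor 1 the highest 3p mean (5.83).

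The classes also differed in their relation to the brightness of the array. Within the diets, the 4 members of the 5p class had r between 0.24 and 0.70 with the log2 summed signal of all miRNAs that are no members (Spearman's rho 0.37 to 0.64), and between 0.34 and 0.77 with the number of such miRNAs detected. The 5 members of the 3p class had r between −0.66 and −0.51 with the summed signal (rho −0.70 to −0.60) and between −0.66 and −0.46 with the number detected. Other miRNAs detected on all arrays had a median r of −0.23 with the summed signal and −0.28 with the number detected. Their r spread widely, from −0.86 to 0.85 and from −0.94 to 0.77, so values of this size were not particular to the members. Summed levels of the 7 marker lists had r between −0.51 and 0.41 with the 5p class mean and between −0.26 and 0.15 with the 3p class mean. The part of array brightness and of other cell types in the shared variation was not tested.

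Both arms of a hairpin come from 1 precursor, so their relation across tumors was tested. The hairpin mmu-miR-466i was the only one among the members with both arms detected on all arrays. Its arms had r = −0.67 over 13 tumors within the diets (permutation p = 0.0206, 100000 two-sided permutations of tumors within each diet) and rho = −0.69 (permutation p = 0.0138). Without the 2 tumors whose 5p arm lay farthest from the median after subtraction of the diet means, curcumin tumors 1 and 7, r was −0.59. With the 2 tumors chosen by the level itself, curcumin tumor 1 and control tumor 5, it was −0.42. Without curcumin tumor 1 alone r was −0.45 (permutation p = 0.108), so the relation rests in part on that tumor. On slide 2 alone (8 tumors) r was −0.79, and slide 1 held too few tumors. Without normalization between arrays r was −0.46 (permutation p = 0.147).

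Further hairpins were added after the values had been seen. Among them mmu-miR-466f has 4 gene copies, 3 of them within Sfmbt2, so its arms need not come from 1 precursor. The arms of mmu-miR-466h had r = −0.69 (permutation p = 0.015), those of mmu-miR-466f had r = −0.53 (permutation p = 0.0963), and those of mmu-miR-574, a hairpin of another family with the same kind of repeat, had r = −0.72 (permutation p = 0.00942). After Benjamini-Hochberg adjustment over the 4 hairpins the p-values of r were 0.0274 for mmu-miR-466i, mmu-miR-466h and mmu-miR-574 and 0.0963 for mmu-miR-466f by this permutation test. The adjustment does not account for the choice of the added hairpins after the values had been seen. Without the 2 tumors farthest from the median, r was −0.59 for mmu-miR-466h, −0.65 for mmu-miR-466f and −0.55 for mmu-miR-574. Without normalization, r of mmu-miR-466h was −0.08, that of mmu-miR-466f −0.02 and that of mmu-miR-574 −0.01, so their relation did not hold on that scale. As a background, the 23 hairpins of other families with both arms detected on all arrays, mmu-miR-574 included, had a median r of 0.71 between the arms. Of these 23 hairpins 6 had a negative r, and mmu-miR-574 alone lay below mmu-miR-466i.

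**Figure D5:**
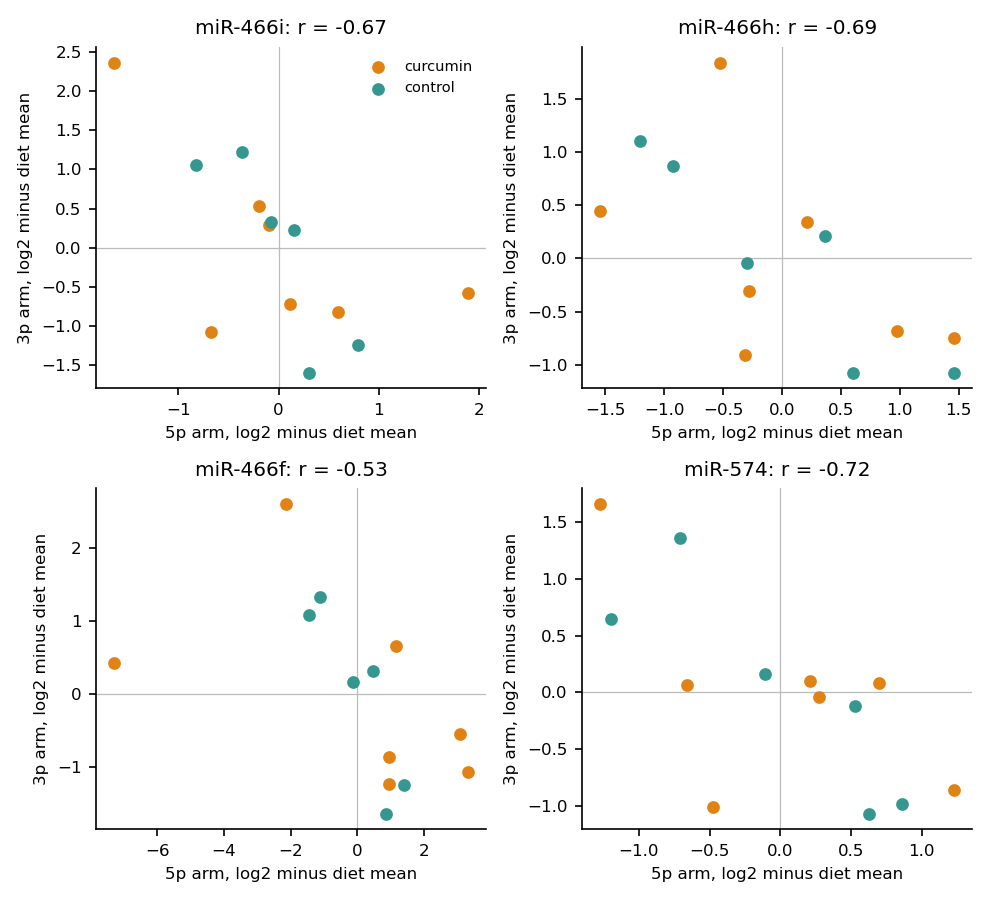
The 5p arm (x axis) against the 3p arm (y axis) of 4 hairpins as log2 value minus the diet mean, 1 point per tumor (7 curcumin, 6 control). Of miR-466f there are 4 gene copies. Tumors with a higher 5p arm tended to have a lower 3p arm, with r = −0.67, −0.69, −0.53 and −0.72; the point far to the left for miR-466f is the floor value of curcumin tumor 5.

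The repeat also occurs in miRNAs of other families, which the rule did not choose. This list, too, was set with earlier results of these data known, so its differences between the diets are a description. The sequences of those named below are printed for comparison with the members, and the host genes are those of the same assembly.
mmu-miR-574-5p: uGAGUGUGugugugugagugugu
mmu-miR-574-3p: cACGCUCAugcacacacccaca
mmu-miR-32-3p: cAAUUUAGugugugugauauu
mmu-miR-672-5p: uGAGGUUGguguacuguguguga

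These lay at chr5:64970328-64970350 and chr5:64970364-64970385 (both plus strand, where Fam114a1 and Tlr6 are annotated), chr4:56895232-56895252 (minus strand, Tmem245) and chrX:104116228-104116250 (minus strand, Nexmif). Of the 4 miRNAs outside the families with 8 bases of alternating U and G, mmu-miR-574-5p and mmu-miR-32-3p were detected on all arrays, mmu-miR-672-5p on 12, and mmu-miR-3097-5p in 1 curcumin and 3 control tumors. In curcumin tumors mmu-miR-574-5p had log2 values of 7.69, 9.17 and 10.19 (lowest, median, highest) and in controls 9.42, 10.83 and 11.48. Its difference was −1.66 ± 0.46 (limma adjusted p = 0.035). For mmu-miR-32-3p the values were 4.23, 5.27 and 6.63 against 6.01, 7.31 and 8.66, a difference of −1.69 ± 0.54 (limma adjusted p = 0.057), and for mmu-miR-672-5p they were 2.11, 4.08 and 5.63 against 4.79, 6.05 and 7.48, a difference of −1.79 ± 0.60 (limma adjusted p = 0.063). The groups overlapped in all 3. Of the 4, limma called mmu-miR-574-5p and the dim mmu-miR-3097-5p lower, and it called neither when any 1 of 9 tumors was left out. With a shorter repeat of 6 bases (UGUGUG or GUGUGU, held by 17 of the 840 and including the longer repeat) there were 12 miRNAs outside the families. Besides those named, limma called mmu-miR-294-3p (−1.37 ± 0.36) and mmu-miR-539-5p (−2.46 ± 0.74, detected in 3 control tumors) lower and mmu-miR-206-3p (1.24 ± 0.37) higher in curcumin tumors. Of the 11 miRNAs outside the families with a CA repeat of 6 bases (CACACA or ACACAC), limma called 1 lower and 2 higher. Over all 1079 miRNAs, 7.51% were called lower and 8.34% higher. The lists are small, and nothing is read from their counts.

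The other arm, mmu-miR-574-3p, had values of 3.72, 4.79 and 6.39 in curcumin tumors and 2.19, 3.27 and 4.61 in controls, a difference of 1.47 ± 0.50 (limma adjusted p = 0.065). Within the diets mmu-miR-574-5p had r = 0.97 with the mean of the 5p class, mmu-miR-32-3p had r = 0.95 and mmu-miR-672-5p had r = 0.86, while mmu-miR-574-3p had r = 0.77 with the mean of the 3p class, the highest of the 233 other miRNAs. Of these 233 miRNAs, 4 had an r above 0.9 with the 5p class mean, namely mmu-miR-574-5p, mmu-miR-468-3p, mmu-miR-1196-5p and mmu-miR-32-3p, and 37 had an r below −0.5. Not all repeat miRNAs detected on all arrays followed the classes. With the UG repeat of 6 bases, mmu-let-7b-5p and mmu-miR-206-3p had r = −0.11 and −0.17 with the 5p class mean. With a CA repeat of 6 bases, mmu-miR-342-3p and mmu-miR-362-3p had r = 0.004 and −0.02 with the 3p class mean.

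With the mean over all 9 members, in which the classes oppose each other, the 5 nearest of the 233 were mmu-miR-706 (r = 0.74), mmu-miR-3470a (0.58), mmu-miR-877-3p (0.57), mmu-miR-574-3p (0.55) and mmu-miR-3072-5p (0.49). Their differences between the diets were 0.23, 0.14, −0.36, 1.47 and −0.22 on the log2 scale. All these correlations are over 13 tumors and describe likeness in these arrays.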

How the data were processed

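The authors hybridized Cy3-labeled RNA of each tumor to 1 one-color Agilent mouse miRNA array and took each intensity from Agilent's Feature Extraction software (10.10.1.1), by which background was removed and each miRNA flagged as detected or not (other values: 0 or 1 flags, as deposited). They also deposited log2 values (median 2.09 on every array), which per the methods are quantile normalized. With an added constant of 4.39, which was assumed here and is not given in the methods, 60.8% were met within 0.001 from sums of all probes. How the rest were made was not rebuilt here.

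The members and lists were chosen with earlier results of these data known. Total probe signals of each of the 1079 mouse miRNAs were summed and quantile normalized, values at or below 0 (51.4%) were set to the smallest positive value, 0.00765, and log2 was taken. For diets and for slides, lmFit and eBayes of limma 3.58.1 were run in R 4.3.3 (two-sided tests, p-values adjusted after Benjamini-Hochberg over all miRNAs, threshold 0.05). The step was tested on simulated arrays. The alternatives were other scalings, the deposited values, normexp background correction (offset 50, on the median spot brightness, in place of the planned mean), a floor of 1, detected miRNAs only, slide or replicate number as a block, within-slide fits, the methods' t-test and each array left out.

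Named with values are the 10 members with the largest difference among those detected in all tumors of at least 1 diet, mmu-miR-1187 and mmu-miR-3082-5p, members called between slides (none), hairpins with both arms detected on all arrays, the 5 other miRNAs nearest to the members' mean, and UG-repeat miRNAs of other families. The classes, further hairpins and the miRNAs named for them, mmu-miR-669n and mmu-miR-466g among them, were added after the values were seen. Genes and sequences are from RefSeq (GRCm38.p6). Of the members 9, and of all array miRNAs 840, matched a sequence by name. The number of arrays limits the precision.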

Additional observations from a re-analysis of the deposited data

Results flagged for a closer look

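In 54 groups of values (the 23 members detected in all tumors of at least 1 diet and 4 repeat miRNAs of other families, in each diet), 2 tumors lay far from the others of their diet by Dixon's test at the 95% level, where chance alone gives about 1 in 20 groups. In mmu-miR-669f-5p, curcumin tumor 5 was at the floor (−7.03), a gap of 0.766 of the range of the 7 tumors. In mmu-miR-574-3p, curcumin tumor 1 had the highest value (6.39), a gap of 0.587 of the range.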

How the results depend on the processing

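Against 171 miRNAs called between the diets, of which 7 were members, the count over all miRNAs was 105 with the 75th percentile of all miRNAs, 49 without normalization, 34 within slide 1, 3 within slide 2, and, unadjusted, 282 and 269 by the methods' t-test (variances equal or unequal). The count of members was 4 with the 75th percentile of detected miRNAs, 0 with that of all miRNAs, without normalization and within slide 2, 1 with the slide as a block and within slide 1, 14 among detected miRNAs only, 18 with the deposited values, and by the t-test 18 and 17 unadjusted and 15 adjusted with either variance. No member was called higher in any limma setting; for the t-test the direction was not counted. Of the 4 UG-repeat miRNAs outside the families, 2 were called lower, against 1 with the 75th percentile of detected miRNAs, normexp, a floor of 1 and within slide 1, 0 with the 75th percentile of all miRNAs, without normalization and within slide 2, and 4 with the deposited values. Between the slides normexp called 2 miRNAs. With each tumor left out in turn the counts were 103 to 184 miRNAs, 0 to 14 members and 0 to 4 of the UG-repeat miRNAs, and 1 between the slides without curcumin tumor 4. The arms of mmu-miR-466i then had r between −0.80 and −0.45.

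Without normalization the median r of all pairs was −0.20 instead of −0.61, within the 5p class 0.97, within the 3p class 0.95 and between the classes −0.42, the first component took 70.8%, and the arms of mmu-miR-466i had r = −0.46.

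With the replicate block (pairs of equal replicate number, 12 arrays) 67 miRNAs, 0 members and 0 of the 4 UG-repeat miRNAs were called. No pairing of the tumors by number was seen, although 6 pairs cannot exclude it. Deviations of same-numbered tumors correlated with r between −0.30 and 0.20, above 0.1 in 4 of 6 pairs, and no tumor was most like its own number.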
